A study of Homo sapiens with 3 samples.

Results

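IRX1, IRX2 and POU3F4 were taken as listed genes, as transcription factors linked to the alpha cell, the glucagon-producing cell of the pancreatic islet. They are 3 of the 36601 genes counted, and all 3 were found by symbol. Their UMIs were counted by droplet single-cell RNA sequencing of islet-like aggregates from HUES8, a widely used established line of human embryonic stem cells. The cells of 1 library had been selected with magnetic beads for carrying CD49a (integrin alpha 1) on the surface, those of another for lacking it, and those of the last had not been sorted. All 3 preparations were then gathered into aggregates again and kept for 7 days, with no other treatment named. Each preparation gave 1 library (CD49a-positive, CD49a-negative and unsorted), so between libraries no test was possible, and every interval below is a 95% interval that covers counting error only.

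The Iroquois genes IRX1 and IRX2 encode homeodomain proteins of the TALE class. Their RNA marks alpha cells among the hormone cells of the human islet. POU3F4, also called BRN4, encodes a POU-homeodomain protein that binds the glucagon promoter and is an alpha cell factor of the mouse pancreas. PDX1, NKX6-1 and PAX4 are homeodomain factors of beta and progenitor cells. Islets made from stem cells also hold enterochromaffin-like cells, which make serotonin and express TPH1, the rate-limiting enzyme of its synthesis.

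IRX2 (ENSG00000170561) lies on the minus strand of chromosome 5, at 2745845 to 2751662 of GRCh38, with 4 to 5 exons per transcript in GENCODE release 29. IRX1 (ENSG00000170549) lies on the plus strand of the same chromosome at 3596054 to 3601403, with 4 exons, and 844391 bases separate the 2 genes. C5orf38 (ENSG00000186493; chromosome 5, 2752131 to 2755397, plus strand) is transcribed away from IRX2, and the 2 start sites are 469 bases apart. POU3F4 (ENSG00000196767) is a single-exon gene on the plus strand of chromosome X at 83508261 to 83512127. The sources used here do not say whether counting used strand. An antisense gene, AC016595.1, overlaps IRX1, and its own counts were low, with 2 to 3 UMIs per library in GCG-only cells against 896 to 2428 UMIs of IRX1. Another annotated gene overlaps the start of POU3F4 on the opposite strand, and reads of the 2 cannot be told apart without strand.

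The 250 bases before each RefSeq start site (GRCh38.p14) are shown because IRX1 and IRX2 moved together across cell classes while POU3F4 did not. Capitals mark a CCAAT box (CCAAT), an E box (CAGNTG) or a homeodomain core (TAAT), each on either strand. The stretches are chr5:3595582-3595831 on the plus strand for IRX1, chr5:2751678-2751927 on the minus strand for IRX2 and chrX:83508040-83508289 on the plus strand for POU3F4, each written 5′ to 3′ along the gene.
IRX1: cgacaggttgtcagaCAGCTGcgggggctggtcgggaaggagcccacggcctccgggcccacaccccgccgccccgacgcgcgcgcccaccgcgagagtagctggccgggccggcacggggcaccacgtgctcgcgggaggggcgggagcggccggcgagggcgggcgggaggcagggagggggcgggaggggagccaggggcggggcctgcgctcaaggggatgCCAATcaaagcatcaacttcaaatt
IRX2: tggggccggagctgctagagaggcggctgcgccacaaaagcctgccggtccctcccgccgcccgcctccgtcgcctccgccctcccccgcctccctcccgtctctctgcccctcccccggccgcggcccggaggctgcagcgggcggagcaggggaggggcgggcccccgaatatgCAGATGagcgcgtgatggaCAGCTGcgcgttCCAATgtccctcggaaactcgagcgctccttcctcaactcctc
POU3F4: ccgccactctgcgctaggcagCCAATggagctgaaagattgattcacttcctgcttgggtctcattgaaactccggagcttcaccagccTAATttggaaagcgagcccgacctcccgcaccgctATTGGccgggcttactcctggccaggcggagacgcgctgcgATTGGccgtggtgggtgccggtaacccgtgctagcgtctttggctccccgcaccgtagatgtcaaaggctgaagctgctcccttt
Both Iroquois stretches carried 1 CCAAT match close to the start site, 25 bases before it for IRX1 and 43 bases before it for IRX2, while POU3F4 carried 3 CCAAT matches farther upstream.

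Motif counts were made over the wider window of the RefSeq table, 250 bases before to 50 bases after the start site, on both strands. GC content of that window was 76.0% for IRX1, 73.3% for IRX2 and 59.3% for POU3F4, against a median of 58.3% over 27305 promoters of the same length. The GC box GGGCGG, present in 44.6% of all promoters, matched 7 times in IRX1, 4 times in IRX2 and 0 times in POU3F4. The homeodomain core TAAT, present in 51.0% of promoters, matched 2 times in POU3F4 and in neither Iroquois window. CAGNTG matched 1, 2 and 1 times (49.9% of promoters) and CCAAT matched 1, 1 and 3 times (35.7%). None of the 3 windows held the POU octamer ATGCAAAT (1.80% of promoters), the Iroquois palindrome ACANNTGT (5.60%), the forkhead site TGTTTAC (3.41%), the MAF core TGCTGAC (4.20%) or TATAAA (12.0%). The RefSeq start site of IRX1 lies 222 bases before the GENCODE one, so the window depends on the annotation used.

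Cells were assigned to classes by 4 transcripts only, none of them a member. A cell was called rich in INS, GCG or SST when that gene reached at least 20000 CPM (UMIs scaled to the same fixed total in every cell or class), and rich in TPH1 at 200 CPM or more. Of 6618 kept cells, 950 were rich in GCG alone (195 CD49a-positive, 400 CD49a-negative and 355 unsorted), 2723 in INS alone (1586, 402 and 735), 162 in SST alone (26, 72 and 64) and 846 in TPH1 alone (81, 388 and 377). Another 977 cells, 14.8% of the total, were rich in 2 or more, led by 390 INS+GCG cells and 286 INS+TPH1 cells. No cell type name rests on these classes, and 960 cells were rich in none of the 4. Within 1.25-fold of a minimum lay 438 cells for INS, 270 for GCG, 89 for SST and 333 for TPH1.

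Markers other than the 4 class genes were summed as a check of the classes. The 6 other alpha cell markers summed to 32581 to 45302 CPM in GCG-only cells, 14425 to 21247 CPM in INS-only cells and 8013 to 12077 CPM in TPH1-only cells. Most of that sum is TTR (transthyretin, 30906 to 42868 CPM in GCG-only cells), and CRYBA2 went the other way, at 1356 to 2043 CPM in GCG-only and 2397 to 4642 CPM in TPH1-only cells. The 9 other beta cell markers summed to 5105 to 5717 CPM in INS-only and 1081 to 1343 CPM in GCG-only cells, and the 7 other enterochromaffin markers to 1362 to 2312 CPM in TPH1-only and 209 to 378 CPM in GCG-only cells. Sums of 3 proliferation markers were also higher in GCG-only cells (34.0 to 56.1 CPM) than in INS-only cells (5.07 to 13.7 CPM), and the part of such differences in the results below was not tested. Median depth was 38722 to 39681 UMIs in GCG-only cells, 42316 to 54274 in INS-only cells and 29297 to 29893 in TPH1-only cells. Scrublet marked 8 of 6626 cells, too few for a working call, so cell pairs remain among the cells counted, and 4 barcode sequences occurred in 2 libraries.

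IRX1 was highest in cells rich in GCG alone. There it stood at 112 CPM (interval 105 to 119.5) in the CD49a-positive library, 136 CPM (131 to 142) in the CD49a-negative library and 133 CPM (128 to 139) in the unsorted library. In SST-only cells it stood at 69.0, 62.8 and 65.1 CPM, and in INS-only cells at 28.6, 50.4 and 38.8 CPM, in the same order of libraries. TPH1-only cells held 24.7, 22.1 and 16.2 CPM. The order GCG, SST, INS, TPH1 was found in all 3 libraries. Neighbouring classes differed beyond counting error in every library with 1 exception. In the CD49a-positive library INS-only cells were 1.16-fold above TPH1-only cells, with an interval of 0.920 to 1.49.

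IRX2 followed the same order. GCG-only cells held 243 CPM (233 to 254) in the CD49a-positive library, 280 CPM (272 to 288) in the CD49a-negative library and 267 CPM (259 to 276) in the unsorted library. SST-only cells held 148, 157 and 154 CPM and INS-only cells 85.0, 118 and 89.8 CPM. TPH1-only cells held 64.5, 42.0 and 27.9 CPM. GCG-only cells were above every other single class in every library, and all neighbouring classes differed beyond counting error in all 3. TPH1-only cells spread widest, with the CD49a-positive library 2.31-fold (1.93 to 2.76) above the unsorted one. That CD49a-positive level came from 191 UMIs in 32 of 81 cells, with up to 32 UMIs in a cell. The interval leaves out such spread between cells.

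**Figure D1:**
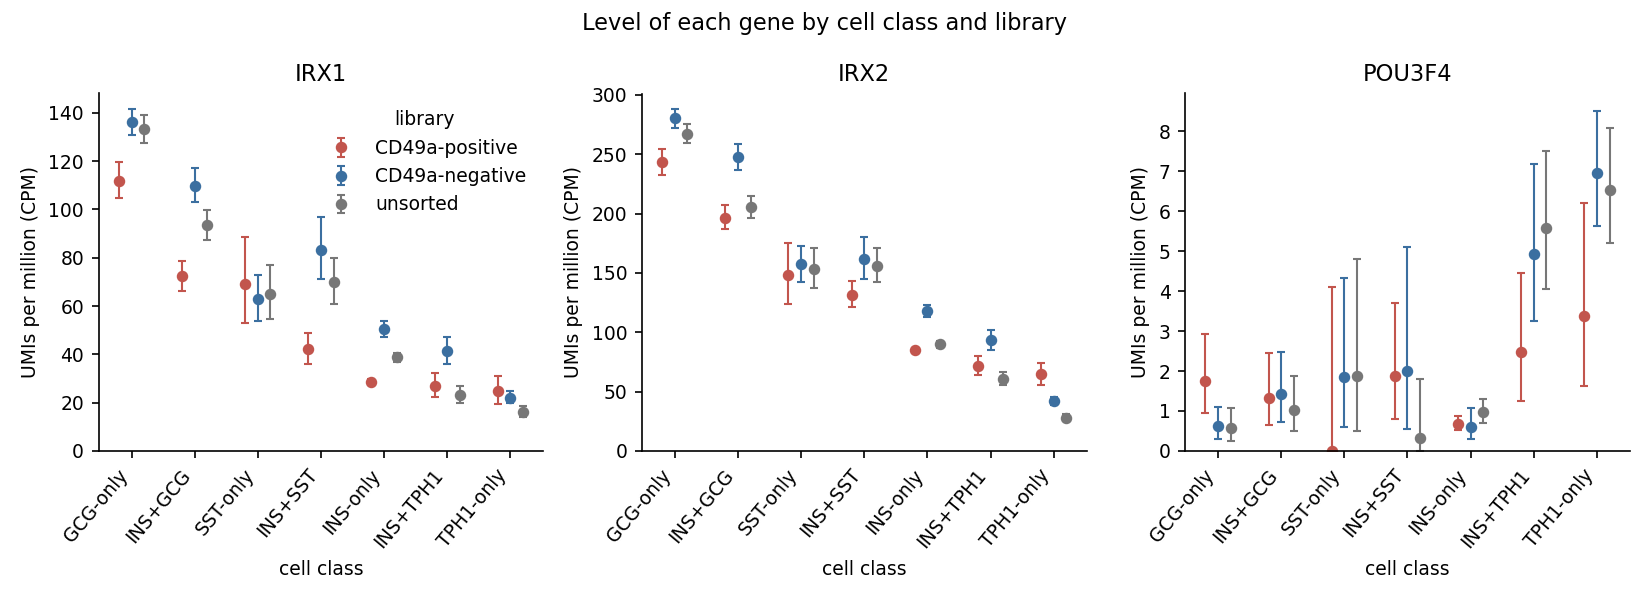
Level of IRX1, IRX2 and POU3F4 in CPM (vertical axes, linear, from 0) by cell class (horizontal axis) and library (colour). Points are summed UMIs of the class over its total UMIs, and bars are exact Poisson 95% intervals. IRX1 and IRX2 fall from GCG-only cells (IRX2 243 to 280 CPM) to TPH1-only cells (IRX2 27.9 to 64.5 CPM), whereas POU3F4 is highest in TPH1-only cells (3.38 to 6.96 CPM).

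To set these differences against their own variation between libraries, UMIs were summed per class and library. The 15 sums of 5 classes were fitted together with library as a block. Of 17418 genes tested, 18.9% passed as higher and 18.5% as lower in GCG-only than in INS-only cells, so passing this test is common here. IRX1 was higher in GCG-only than in INS-only cells by 1.72 ± 0.12 log2 units (SE; edgeR quasi-likelihood test, Benjamini-Hochberg adjusted p = 9.3e-09). IRX2 was higher by 1.44 ± 0.16 (edgeR, adjusted p = 1.4e-06). For both genes the lowest GCG-only library lay above the highest INS-only library, as for 23.2% of all genes tested. The 3 libraries share 1 cell line, differ in the sort, and separate cultures are not named. With library as a block, these p-values measure only how far class differences varied between these 3 libraries.

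Against TPH1-only cells the differences were larger. IRX1 was higher in GCG-only cells by 2.86 ± 0.15 log2 units (edgeR, adjusted p = 9.3e-11) and IRX2 by 2.83 ± 0.18 (edgeR, adjusted p = 9.7e-10). In that comparison 25.3% of all genes passed as higher in GCG-only cells. Against SST-only cells, where 7.43% of genes passed as higher, IRX1 was higher by 1.11 ± 0.15 (edgeR, adjusted p = 7.9e-05) and IRX2 by 0.88 ± 0.17 (edgeR, adjusted p = 0.0018). INS-only cells in turn stood above TPH1-only cells. TPH1-only minus INS-only was -1.14 ± 0.15 log2 units for IRX1 (edgeR, adjusted p = 8.8e-06) and -1.39 ± 0.17 for IRX2 (edgeR, adjusted p = 6.2e-06), where 19.4% of genes passed as lower in TPH1-only cells.

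Most GCG-only cells carried IRX transcripts. At the depth sequenced, IRX1 was seen in 89.2%, 93.0% and 92.1% of GCG-only cells (CD49a-positive, CD49a-negative, unsorted) and IRX2 in 95.9%, 99.0% and 95.8%. In TPH1-only cells IRX1 was seen in 33.3%, 31.4% and 24.9%, and IRX2 in 39.5%, 34.8% and 26.3%, from shallower cells. To remove depth, each cell was thinned to 10000 UMIs and cells below that were left out (48 GCG-only, 344 INS-only, 21 SST-only and 61 TPH1-only cells over all libraries). IRX2 was then seen in 90.7% of GCG-only cells, 67.4% of SST-only cells, 46.5% of INS-only cells and 16.9% of TPH1-only cells of the 3 libraries together. IRX1 was seen in 66.2%, 43.3%, 26.1% and 10.7% in that order of classes.

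Cells with both transcripts were common in the GCG-only class. At 10000 UMIs both were found in 57.1%, 61.4% and 58.9% of GCG-only cells of the CD49a-positive, CD49a-negative and unsorted libraries, and neither in 3.30%, 2.31% and 3.02%. In INS-only cells both were found in 13.4%, 28.0% and 20.2% and neither in 47.7%, 34.6% and 45.2%. Among TPH1-only cells neither was found in 71.6%, 72.8% and 82.3%. Within the GCG-only class the share of cells with IRX2 lay in overlapping intervals whether or not IRX1 was found. Over all 3 libraries IRX2 was found in 90.1% (87.4 to 92.4%) of cells with IRX1 and in 91.8% (88.1 to 94.6%) of cells without it. In INS-only cells IRX2 was found in 67.3% (63.5 to 71.0%) of cells with IRX1 and in 39.1% (36.8 to 41.5%) of those without, and in TPH1-only cells in 42.9% (32.1 to 54.1%) against 13.8% (11.4 to 16.6%).

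**Figure D2:**
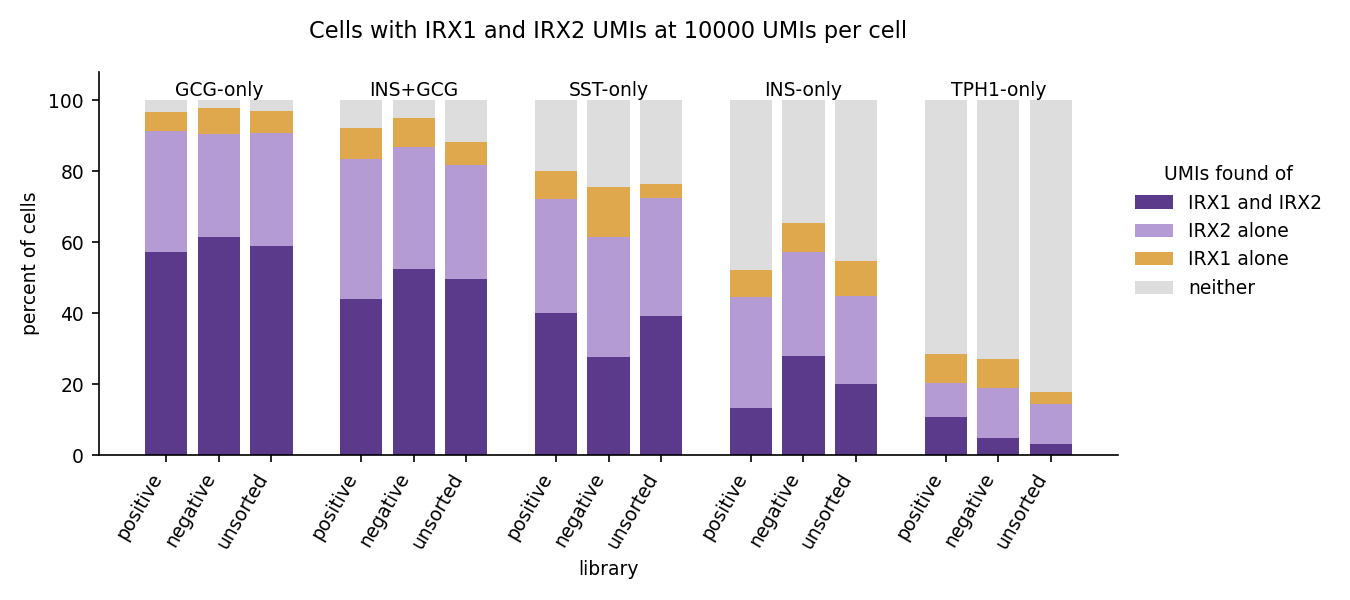
Percent of cells (vertical axis, from 0) in which both IRX1 and IRX2, either alone or neither was found after thinning each cell to 10000 UMIs, by class and library (horizontal axis). Both were found in 57.1 to 61.4% of GCG-only cells and in 3.10 to 10.8% of TPH1-only cells.

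IRX transcripts were also found in cells outside the GCG-only class that held little GCG. INS-only cells with GCG under 100 CPM held IRX2 at 74.6, 69.8 and 57.2 CPM in the CD49a-positive, CD49a-negative and unsorted libraries (760, 70 and 155 cells) and IRX1 at 24.7, 27.1 and 26.2 CPM. TPH1-only cells with GCG under 100 CPM held IRX2 at 52.7, 35.4 and 19.5 CPM (34, 107 and 96 cells). The barcodes left out for few genes or a high mitochondrial share held IRX2 at 61.3, 54.3 and 50.8 CPM and IRX1 at 27.2, 26.4 and 25.6 CPM. The part of free RNA in these levels was not tested.

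Both Iroquois genes were higher in cells with more GCG. Among cells not rich in INS, SST or TPH1, IRX2 over all 3 libraries stood at 80.4 CPM in 201 cells with GCG under 100 CPM and at 97.9 CPM in 450 cells with 100 to 1000 CPM. From there it was 194, 218, 245, 270 and 290 CPM in bins starting at 1000, 5000, 20000, 50000 and 100000 CPM of GCG. IRX1 went from 30.1 to 43.3, 77.1, 97.5, 113, 134 and 144 CPM over the same bins. The lowest and highest bins differed in the same direction in each library, but in the CD49a-positive library the second bin (51.0 CPM of IRX2) was below the first (69.5 CPM).

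**Figure D3:**
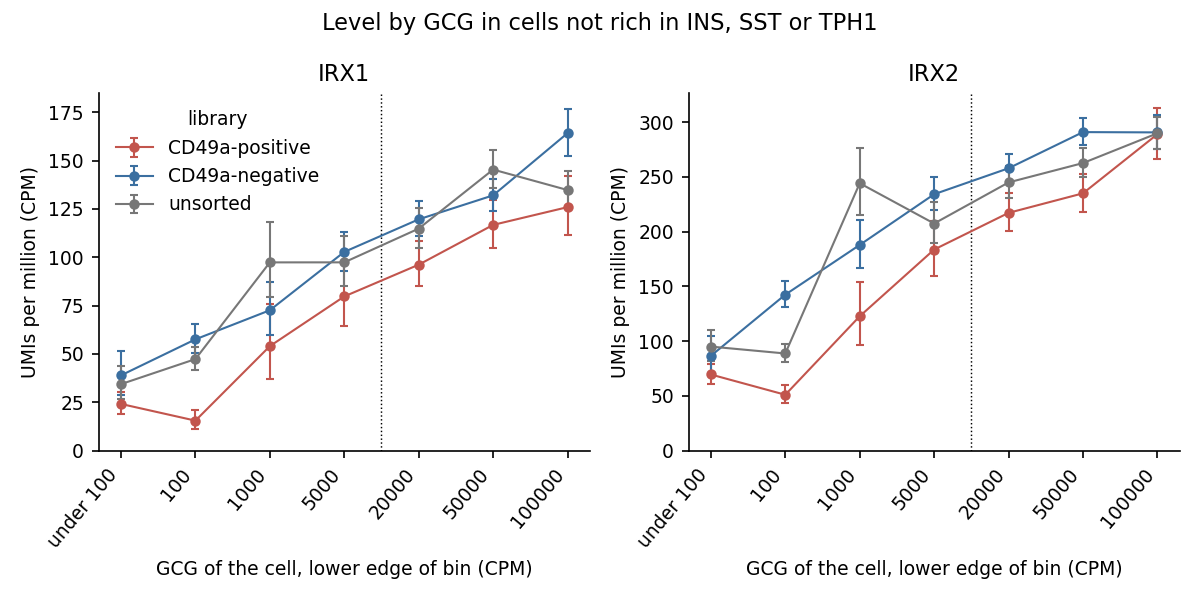
IRX1 and IRX2 in CPM (vertical axes, from 0) by the GCG level of the cell (horizontal axis, lower edge of each bin in CPM) in cells not rich in INS, SST or TPH1. Lines join the bins of 1 library, bars are exact Poisson 95% intervals, and the dotted line marks the GCG-rich minimum. IRX2 over all libraries goes from 80.4 to 290 CPM, and IRX1 from 30.1 to 144 CPM.

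INS-only cells held more IRX RNA where they also held some GCG. IRX2 over all 3 libraries was 74.1 CPM below 50 CPM of GCG, 70.4 CPM from 50, 81.3 CPM from 100, 138 CPM from 1000 and 159 CPM from 5000 to 20000 CPM. IRX1 was 27.0, 24.0, 31.2, 54.8 and 64.7 CPM over the same bins. TPH1-only cells with GCG from 1000 to 20000 CPM likewise held IRX2 at 115 CPM in 42 CD49a-negative cells and 91.4 CPM in 38 unsorted cells, against 25.7 and 16.1 CPM with GCG from 100 to 1000 CPM. The CD49a-positive library had only 8 such TPH1-only cells (237 CPM).

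Cells rich in both INS and GCG had IRX levels between those of INS-only and GCG-only cells in every library. GCG-only cells held 1.55, 1.24 and 1.43 times the IRX1 of INS+GCG cells (CD49a-positive, CD49a-negative, unsorted). For IRX2 it was 1.24, 1.13 and 1.30 times, and every interval excluded 1. In INS+GCG cells IRX1 stood at 72.3, 110 and 93.4 CPM and IRX2 at 197, 248 and 206 CPM in the same order of libraries. Both were higher than in INS-only cells, IRX1 by 1.32 ± 0.12 log2 units (edgeR, adjusted p = 3.1e-06) and IRX2 by 1.23 ± 0.16 (edgeR, adjusted p = 3.8e-05), where 14.6% of all genes passed as higher. GCG-only cells exceeded INS+GCG cells by 0.40 ± 0.12 for IRX1 (edgeR, adjusted p = 0.028) and by 0.21 ± 0.16 for IRX2 (edgeR, adjusted p = 0.35), where 10.4% of genes passed as higher. The IRX1 call was lost under 6 of 17 other settings (adjusted p up to 0.34), also without the unsorted library (adjusted p = 0.25), while the IRX2 difference stayed uncalled in all 17.

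INS+GCG cells were deep, with medians of 73629, 61804 and 70738 UMIs against 92179, 81038 and 93955 UMIs for the median GCG-only and INS-only cell added together. A sum of those 2 median cells would hold IRX2 at 153, 196 and 165 CPM, and IRX1 at 64.4, 91.4 and 78.7 CPM. The measured IRX2 level was 1.29, 1.27 and 1.25 times that sum and IRX1 1.12, 1.20 and 1.19 times. GCG in these cells was also 1.20, 1.19 and 1.18 times the sum and INS 1.20, 1.03 and 1.09 times, and the class requires a high share of both. How many INS+GCG barcodes hold 2 cells was not tested. INS+SST cells held IRX1 at 42.1, 83.2 and 69.9 CPM and IRX2 at 132, 162 and 156 CPM. INS+TPH1 cells held less, with IRX1 at 26.8, 41.3 and 23.1 CPM and IRX2 at 72.0, 93.4 and 60.8 CPM.

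POU3F4 went against its label as an alpha cell factor in these cells. It was rare everywhere, with 124, 204 and 224 UMIs in 86, 141 and 154 kept cells of the CD49a-positive, CD49a-negative and unsorted libraries. GCG-only cells held 1.75 CPM (0.956 to 2.94), 0.617 CPM (0.308 to 1.10) and 0.569 CPM (0.260 to 1.08), from 14, 11 and 9 UMIs. INS-only cells held 0.679, 0.600 and 0.970 CPM. TPH1-only cells held 3.38 CPM (1.62 to 6.21), 6.96 CPM (5.62 to 8.51) and 6.53 CPM (5.21 to 8.08), from 10, 94 and 84 UMIs. TPH1-only cells were thus the highest single class in every library, although in the CD49a-positive library their lead over GCG-only cells, 1.93-fold, had an interval of 0.767 to 4.67.

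GCG-only cells were lower than TPH1-only cells in POU3F4 by -2.68 ± 0.39 log2 units (edgeR, adjusted p = 2.0e-05), in a comparison where 24.7% of all genes passed as lower in GCG-only cells. TPH1-only cells were higher than INS-only cells by 2.80 ± 0.34 (edgeR, adjusted p = 4.5e-06), where 20.4% of genes passed as higher. Both differences kept their direction and call under every other setting in which POU3F4 could be fitted. Between GCG-only and INS-only cells the difference was 0.12 ± 0.43 (edgeR, adjusted p = 0.85), and without the CD49a-positive library it turned to -0.50 (edgeR, adjusted p = 0.36). SST-only cells held 0, 5 and 4 POU3F4 UMIs (0, 1.86 and 1.87 CPM) in the CD49a-positive, CD49a-negative and unsorted libraries. A count of 0 allows up to 3.34 CPM in the 26 CD49a-positive SST-only cells. GCG-only cells held 0.332 times (0.106 to 1.22) the SST-only level in the CD49a-negative library. In the unsorted library they held 0.304 times (0.0848 to 1.35), so both intervals included 1. From these few UMIs no difference between the GCG-only and SST-only classes was called (edgeR, adjusted p = 0.54).

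POU3F4 was higher in cells with more TPH1. Among cells not rich in INS, GCG or SST it stood over all 3 libraries at 0.544 CPM in 627 cells without a TPH1 UMI and at 2.28 CPM in 190 cells with TPH1 under 100 CPM. It was 3.27, 4.69, 8.36 and 7.18 CPM in bins starting at 100, 200, 500 and 1000 CPM of TPH1. The lowest and highest bins stood in this order in the CD49a-negative library (0.166 to 8.22 CPM) and the unsorted library (0.394 to 6.27 CPM), while the CD49a-positive library rested on 1 to 6 UMIs per bin, with 18 cells in the bin starting at 500 CPM. INS-only cells, all below the TPH1 minimum, showed the same order at lower levels, with 0.322 CPM where no TPH1 UMI was found and 0.738, 1.69 and 2.18 CPM in bins up to 50, 100 and 200 CPM of TPH1. IRX2 ran the other way, from 151 CPM without TPH1 to 19.1 CPM at 1000 CPM and above in cells not rich in INS, GCG or SST.

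**Figure D4:**
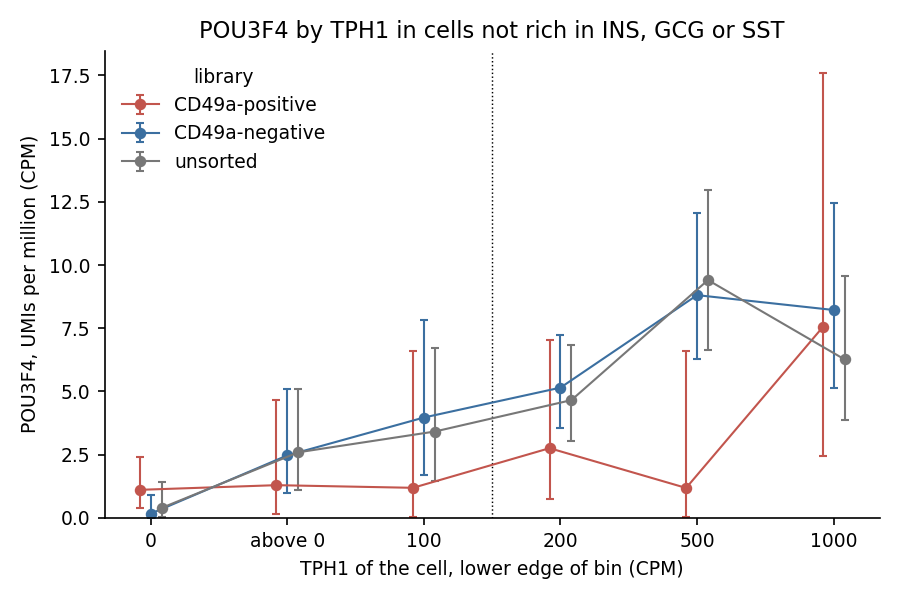
POU3F4 in CPM (vertical axis, from 0) by the TPH1 level of the cell (horizontal axis, lower edge of each bin in CPM) in cells not rich in INS, GCG or SST. Lines join the bins of 1 library, bars are exact Poisson 95% intervals, and the dotted line marks the TPH1-rich minimum. In the CD49a-negative library POU3F4 goes from 0.166 to 8.22 CPM, and the CD49a-positive bins rest on 1 to 6 UMIs each.

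Cells with POU3F4 were often TPH1-rich. Of the cells with at least 1 POU3F4 UMI, 18.6% in the CD49a-positive, 63.8% in the CD49a-negative and 57.8% in the unsorted library were rich in TPH1, against 6.93%, 27.3% and 24.0% of all kept cells. INS+TPH1 cells also held POU3F4, at 2.48, 4.93 and 5.59 CPM. INS+GCG cells held it at 1.33, 1.42 and 1.02 CPM. At 10000 UMIs per cell POU3F4 was found in 4.84% of TPH1-only cells and 0.554% of GCG-only cells, and in INS-only cells in 0.588%. Among GCG-rich cells not rich in INS, SST or TPH1, no bin of GCG passed 1.15 CPM of POU3F4 over the 3 libraries together. GCG-rich cells that were also rich in another of the 4 genes held 1.66, 2.13 and 1.51 CPM (CD49a-positive, CD49a-negative, unsorted).

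Over all kept cells the 3 genes were lower in the CD49a-positive than in the CD49a-negative library. IRX1 stood at 37.9 CPM (positive), 76.2 CPM (negative) and 59.1 CPM (unsorted), a positive-to-negative ratio of 0.497 (0.479 to 0.517). IRX2 stood at 104, 167 and 128 CPM, a ratio of 0.623 (0.609 to 0.639), and POU3F4 at 1.01, 2.41 and 2.05 CPM, a ratio of 0.420 (0.333 to 0.528). The unsorted library lay between the sorted ones for all 3 genes. By a rule of size (2-fold with 1 CPM added), 1.23% of 10504 genes were lower and 0.971% higher in the CD49a-positive library. Neither IRX1 nor IRX2 passed it, and POU3F4 was too low to be counted by it.

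The classes differed in number between the libraries, since GCG-only cells made up 8.15%, 20.2% and 15.8% of kept cells (CD49a-positive, CD49a-negative, unsorted), TPH1-only cells 3.38%, 19.6% and 16.8%, and INS-only cells 66.2%, 20.3% and 32.7%. With the class mix held at that of the unsorted library, the positive-to-negative ratio was 0.679 for IRX1, 0.781 for IRX2 and 0.749 for POU3F4, nearer to 1 for each gene. Within GCG-only cells the ratio was 0.823 (0.761 to 0.888) for IRX1 and 0.868 (0.824 to 0.915) for IRX2. POU3F4 went the other way in that class, at 2.84 (1.20 to 6.90), from 14 against 11 UMIs, and under some other settings its interval included 1. In SST-only cells the intervals of both Iroquois genes included 1 (IRX1 0.807 to 1.48, IRX2 0.769 to 1.15).

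Among INS-only cells the ratio was 0.568 (0.526 to 0.613) for IRX1 and 0.720 (0.686 to 0.755) for IRX2. Cells with GCG under 100 CPM made up 47.9% of the INS-only cells of the CD49a-positive library, 17.4% of the CD49a-negative and 21.1% of the unsorted library. Within those cells the ratio was 0.910 (0.723 to 1.16) for IRX1 and 1.07 (0.927 to 1.24) for IRX2. In INS-only cells with GCG of 1000 to 20000 CPM it was 0.655 (0.581 to 0.739) for IRX1 and 0.786 (0.729 to 0.848) for IRX2. Between them, at 100 to 1000 CPM of GCG, it was 0.725 (0.634 to 0.832) for IRX1 and 0.944 (0.867 to 1.03) for IRX2. In the bin from 1000 CPM of GCG, IRX2 was found in 65.0% of CD49a-positive, 95.5% of CD49a-negative and 92.9% of unsorted cells. For IRX1 it was 58.4%, 92.0% and 90.6%, so many CD49a-positive cells of this bin had no IRX UMI. A difference between the libraries was thus seen for both genes at 1000 CPM of GCG and above. It was not detectable for either below 100 CPM, and whether the ratios themselves differ was not tested. TPH1-only cells went the other way for IRX2, with a positive-to-negative ratio of 1.53 (1.30 to 1.81).

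The tested genes of the Iroquois family list, which includes the members IRX1 and IRX2, moved in 1 direction against INS-only cells. Of 9 listed genes 8 were counted and 5 had enough UMIs to test, namely IRX1, IRX2, C5orf38, IRX3 and IRX5. All 5 were higher in GCG-only than in INS-only cells, with a median log2 difference of 1.50. Over all genes tested 18.9% passed as higher, with a median of 0.02. The count and median thus hold the values of IRX1 and IRX2 given above. C5orf38, the divergent neighbour of IRX2, stood at 101, 126 and 115 CPM in GCG-only cells and at 30.2, 55.2 and 37.1 CPM in INS-only cells (1.51 ± 0.09; edgeR, adjusted p = 2.2e-09). IRX3 was higher by 1.50 ± 0.44 (edgeR, adjusted p = 0.013) from levels near 1 CPM. Against SST-only cells 3 of the 5 (IRX1, IRX2 and C5orf38) were higher in the GCG-only class and 2 were lower, where 8.11% of all genes passed as lower. These 2 were IRX3, at 10.0, 6.32 and 10.8 CPM in SST-only cells (-2.94 ± 0.44; edgeR, adjusted p = 0.00017), and IRX5, named after its values were seen, at 5.56, 4.83 and 7.03 CPM (-2.48 ± 0.50; edgeR, adjusted p = 0.0022).

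Of 8 POU genes 5 could be tested, the member POU3F4 among them. Against INS-only cells 1 was higher and 1 was lower in the GCG-only class, with a median of 0.01. These shares are near those over all genes, of which 18.9% passed as higher and 18.5% as lower. POU3F2, a paralog of POU3F4 also known as BRN2, stood at 2.62, 4.48 and 5.06 CPM in GCG-only cells and at 0.597, 1.04 and 0.578 CPM in INS-only cells (2.49 ± 0.24; edgeR, adjusted p = 3.6e-07). POU2F2 was lower by -1.26 ± 0.13 (edgeR, adjusted p = 8.9e-07). POU3F2 was also higher than in TPH1-only cells (3.22 ± 0.33; edgeR, adjusted p = 4.2e-07), opposite to POU3F4.

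Of 36 islet transcription factors 34 were tested. Against INS-only cells 9 were higher and 16 lower in the GCG-only class, with a median of -0.27. Over all genes 18.9% passed as higher and 18.5% as lower, with a median of 0.02. The beta cell factors PDX1 (-3.78 ± 0.18; edgeR, adjusted p = 1.9e-10) and NKX6-1 (-3.19 ± 0.20; edgeR, adjusted p = 2.5e-09) were lower, as was PAX4 (-2.91 ± 0.13; edgeR, adjusted p = 1.6e-10). LMX1A, a factor of enterochromaffin cells, stood at 16.7, 25.2 and 18.7 CPM in GCG-only cells and at 99.8, 121 and 114 CPM in INS-only cells (-2.44 ± 0.16; edgeR, adjusted p = 4.4e-09). PAX6 and ISL1, factors shared by alpha and beta cells and named after their values were seen, did not pass against INS-only cells (0.01 and -0.08). Both were higher than in TPH1-only cells, by 1.74 and 2.26. Against TPH1-only cells 11 of the 34 were higher and 17 lower, where 25.3% and 24.7% of all genes passed.

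**Figure D5:**
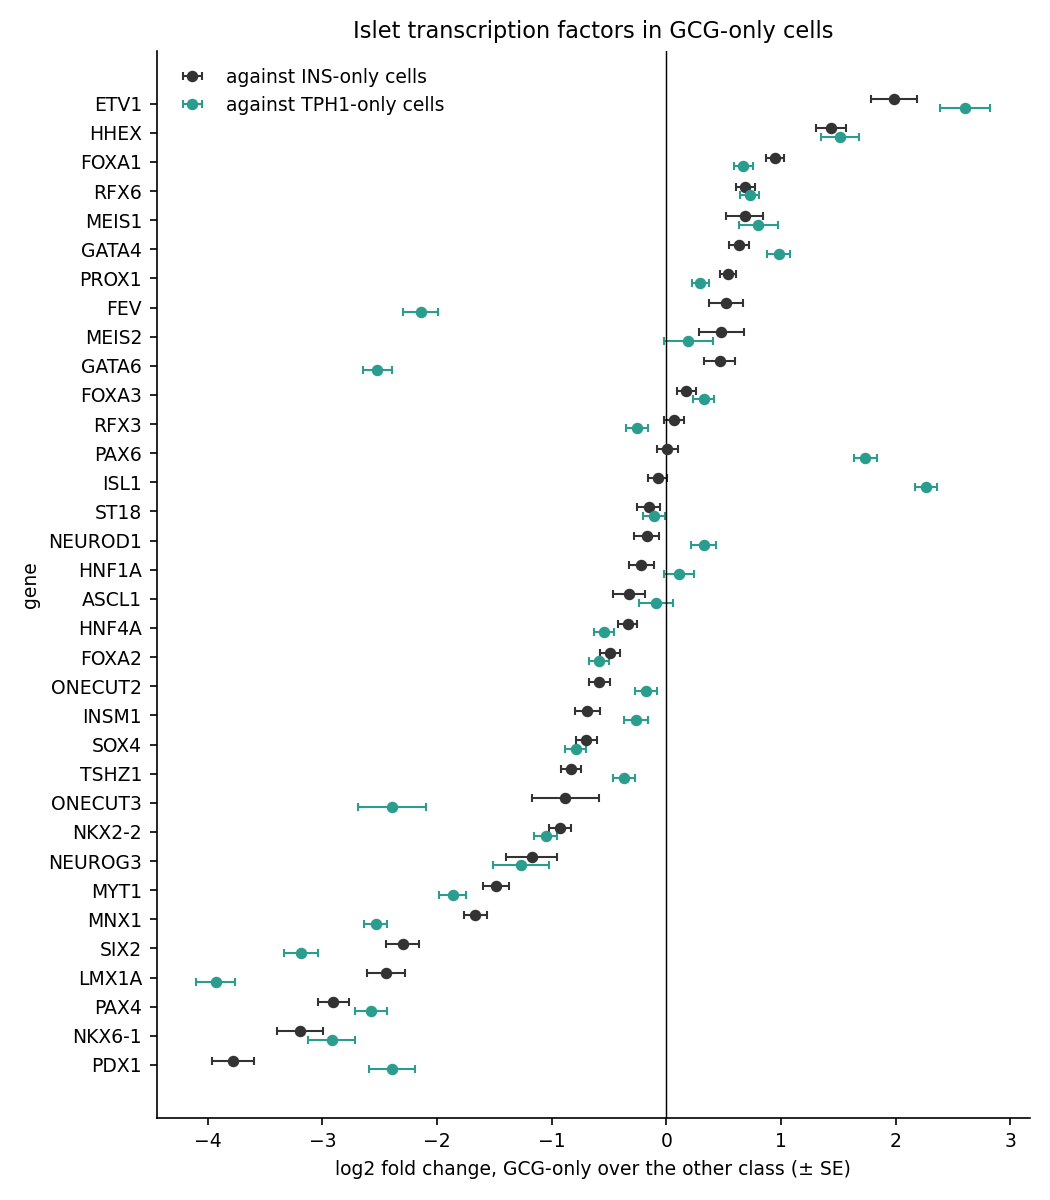
Log2 difference of GCG-only cells from INS-only cells (dark) and from TPH1-only cells (green) for the 34 islet transcription factors tested (vertical axis, ordered by the first difference). Points are edgeR estimates over 3 libraries and bars are standard errors. PDX1 is lowest against INS-only cells (-3.78) and LMX1A against TPH1-only cells (-3.93), and PAX6 and ISL1 lie near 0 against INS-only cells and above 1 against TPH1-only cells.

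Effector and surface genes linked to alpha cells were mostly higher in GCG-only than in INS-only cells. Of 20 listed, 18 were tested and 16 were higher in GCG-only than in INS-only cells, 0 were lower, and the median was 1.30, where 18.9% and 18.5% of all genes passed as higher and lower. FAP, a surface protease, was higher by 3.64 ± 0.32 (edgeR, adjusted p = 3.3e-07), from 2.41 to 2.87 CPM against 0.152 to 0.327 CPM. GC, the vitamin D binding protein, was higher by 2.60 ± 0.31 (edgeR, adjusted p = 3.4e-06), the surface peptidase DPP4 by 2.17 ± 0.18 (edgeR, adjusted p = 5.6e-08) and KCTD12 by 1.76 ± 0.12 (edgeR, adjusted p = 6.9e-09). Against TPH1-only cells 14 were higher and 3 were lower, where 25.3% and 24.7% of all genes passed. The 3 lower genes, named after their values were seen, were TM4SF4 (-1.16), SCG2 (-0.91) and CRYBA2 (-0.86).

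Across the 15 class and library sums IRX1 and IRX2 were each near the top of the other's list of like patterns among 12026 genes (Pearson r of log2(CPM + 1) = 0.98). These sums share cells' libraries and depth, and r is given as a description only. After CAPN2, a calpain, IRX2 was the gene most like IRX1, followed by C5orf38, SMCO4 and RGS4, a regulator of G protein signalling. IRX1 was the gene most like IRX2, followed by C5orf38, ITGB1 (integrin beta 1), ADCY7 (an adenylate cyclase) and SMCO4. POU3F4 had r of -0.64 with IRX1 and -0.70 with IRX2, and the genes most like it were BRINP2, PEG10, SEMA3D, PLAAT1 and GPRC5A (r from 0.92 to 0.93). GPRC5A, for example, ranged from 5.74 to 11.3 CPM in TPH1-only cells and from 0.125 to 0.448 CPM in GCG-only cells.

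The relation of the 2 Iroquois transcripts among cells of 1 class was described at 10000 UMIs. Over GCG-only cells Pearson r between their counts was 0.18, 0.06 and 0.17 in the CD49a-positive, CD49a-negative and unsorted libraries (182, 389 and 331 cells). Over INS-only cells it was 0.19, 0.46 and 0.31 (1331, 364 and 684 cells). Over TPH1-only cells it was 0.54, 0.29 and 0.25 (74, 356 and 355 cells), and over SST-only cells 0.24, 0.09 and 0.44 (25, 65 and 51 cells). The counts are small, with a median of 1 IRX1 UMI and 2 to 3 IRX2 UMIs per GCG-only cell at this depth, and correlations in counts this sparse are descriptions only.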

How the data were processed

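The authors deposited UMI counts for each gene in each barcode, as whole numbers made with Cell Ranger 7.1.0 on GRCh38, per the submitters' processing notes. The 3 libraries held 127119509 (CD49a-positive), 88397368 (CD49a-negative) and 114479071 (unsorted) UMIs. A barcode was kept from 1000 genes upward unless mitochondrial UMIs passed 20% of its total, and cells marked by Scrublet (scanpy 1.11.5) were removed. This left 2394, 1976 and 2248 cells. Removed barcodes made up 46.9%, 23.0% and 19.7%.

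Levels are summed UMIs as CPM with exact Poisson intervals, shares have exact binomial (Clopper-Pearson) intervals, and ratios have intervals from the exact binomial on the split of UMIs, all at 95%. Classes were compared on 15 sums (5 classes in 3 libraries, at least 20 cells each) with edgeR 4.0.16 (R 4.3.3): TMM scaling, filterByExpr, library as a block, quasi-likelihood test, 8 residual degrees of freedom and Benjamini-Hochberg adjustment over 17418 genes at a threshold of 0.05. All 3 members passed the count filter. The 4 genes that cut the classes were not tested. On simulated counts (17111 genes, GCG-only against INS-only cells) 99% of genes changed 2-fold and 100% of genes changed 4-fold were recovered, and 4 unchanged genes were called. The changed genes were drawn only from genes with mean counts above those of POU3F4, and every gene was given the same spread. Recovery for genes as rare as POU3F4 was not tested. The alternatives were DESeq2 1.42.0, other minimums, filters, scalings and depths, and fits without a library. Mixture minimums, taken where 2 fitted Gaussian components cross, were 21555 CPM for INS, 4029 for GCG, 822 for SST and 0.00492 for TPH1. At that TPH1 minimum any cell with a TPH1 UMI counted as TPH1-rich, so the classes of this setting differ in kind from the main ones. Limiting INS-only and TPH1-only cells to those with GCG under 100 CPM, and the contrasts of TPH1-only and INS+GCG with INS-only cells, were added after seeing the data.

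The members and gene lists were chosen with earlier results of these data known. Beside the members, the genes named are, per list, those past the threshold with the 4 largest log2 differences between GCG-only and INS-only cells, and for likeness the 5 highest r among genes with at least 10 CPM in 1 sum. A few genes of the POU and islet factor lists are not reported here, and those lists' counts and medians leave them out. Gene positions came from GENCODE release 29 and promoter sequences from RefSeq (GRCh38.p14), which matched 3 of the 3 members.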

Additional observations from a re-analysis of the deposited data

Results flagged for a closer look

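Barcodes left out of the comparisons (under 1000 genes or over 20% mitochondrial UMIs) also held member UMIs. In the CD49a-positive library they held 129 IRX1 and 291 IRX2 UMIs, in the CD49a-negative library 101 and 208, and in the unsorted library 112 and 222. POU3F4 had 7 UMIs in the left-out barcodes of the CD49a-negative library and 7 in those of the unsorted library. These totals lie above the 3 UMIs that a count of 0 allows. Per 1000 GCG UMIs, IRX2 gave 11.3, 8.31 and 12.0 in these barcodes (CD49a-positive, CD49a-negative, unsorted), against 2.996, 3.59 and 2.96 in GCG-only cells. It was higher in INS-only cells (71.4, 28.5 and 42.8) and in TPH1-only cells (67.1, 32.1 and 23.9), so the left-out barcodes lay between these classes.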

How the results depend on the processing

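The sort groups could not be paired, since each has 1 library, whereas the class comparisons were made within libraries through the library block. Under 17 other settings IRX1 and IRX2 stayed higher in GCG-only than in INS-only (1.60 to 2.27 and 1.37 to 1.98 log2 units), TPH1-only and SST-only cells, with every call kept. The higher ends, 2.27 and 1.98, are with INS-only cells of GCG under 100 CPM. The IRX1 difference from INS+GCG cells (0.40) lost its call with mixture minimums (0.44), without the top 10% of Scrublet scores (0.34), thinned to 10000 UMIs (0.26), without a library block (0.39) and in DESeq2 (0.41). Leaving out 1 library gave 0.34 to 0.47, uncalled without the unsorted one (0.38). POU3F4 in GCG-only against INS-only cells turned from 0.12 to -0.50 without the CD49a-positive library (leave-one-out -0.50 to 0.66). Against SST-only cells it turned to 6.54 with halved minimums, a fitted value and no bound, since SST-only cells held 0 POU3F4 UMIs there. Thinned, POU3F4 could not be fitted. Genes higher and lower in GCG-only than in INS-only cells numbered 3295 and 3224, 1955 and 2061 when thinned, and 1521 to 2958 and 1691 to 3097 with 1 library left out, lowest without the unsorted library. The cause of each change was not tested.

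The positive-to-negative log2 ratio over all kept cells was -1.01 for IRX1, and -0.92 with cells weighted equally, -0.93 thinned and -0.56 with the class mix held at that of the unsorted library. For IRX2 it was -0.68, and -0.61 with cells weighted equally, -0.61 thinned, -0.64 scaled without hormone and mitochondrial genes, -0.76 with a stricter filter on genes and mitochondrial share, and -0.36 at the held class mix. POU3F4 went from -1.25 to -0.42 at the held mix. In GCG-only cells it went from 1.50 (0.259 to 2.79) to 3.27 (0.310 to 8.76) with mixture minimums, where CD49a-negative cells held 0.122 CPM. The interval took in 0 with minimums doubled (0.98, -0.19 to 2.13) and with the stricter filter (1.17, -0.34 to 2.68). It also did so when thinned (2.68, -0.96 to 8.39). By the 2-fold rule, 102 genes were higher and 129 lower over all kept cells. With 10 CPM added there were 42 and 42, with 50 CPM 10 and 10, and with no minimum 136 and 249. In GCG-only cells 21 were higher and 19 lower, then 6 and 5 with 10 CPM, 1 and 1 with 50 CPM, and 75 and 88 with no minimum.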
